A study of Mus musculus with 12 samples.

Results

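Described here are 40 genes that build the ribosome: RNA polymerase I subunits, the proteins that modify and cut ribosomal RNA in the nucleolus, and the factors that assemble both ribosomal subunits. They were chosen by gene symbol, and all 40 matched a locus among the 27109 of the authors' deposited table. Poly(A) RNA was sequenced from livers of C57BL/6 mice that lacked Atf4 in the liver (LsATF4-/-, called knockout here) or were wild type. Atf4 encodes a transcription factor made under stress. They received an intraperitoneal injection of tunicamycin (1 mg/kg), an inhibitor of protein N-glycosylation that stresses the endoplasmic reticulum (ER), or of its solvent, 0.3% DMSO. The livers were taken 6 h later. The 12 libraries form 4 groups of 3: tunicamycin-treated knockout, tunicamycin-treated wild type, DMSO-treated knockout and DMSO-treated wild type. The sources used here do not name the promoter that drives the deletion, nor the age or sex of the mice. Sequencing lane 5 held the 3 knockout DMSO libraries and lane 4 the other 9. A lane effect cannot be told apart from genotype under DMSO or from tunicamycin in the knockout. The same holds for a difference between the genotypes in the response to tunicamycin. Each group has 1 pooled value per locus, in FPKM, a fragment count corrected for transcript length and library size. The depth of the libraries is unknown.

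Ribosomes are made in the nucleolus, where RNA polymerase I copies the ribosomal DNA into a long precursor RNA. Small nucleolar RNAs with their proteins methylate the precursor and convert uridines to pseudouridines, a large complex called the small subunit processome folds and cleaves it, and further factors carry the pre-40S and pre-60S particles out to the cytoplasm. The transcription factor MYC is known to drive many of these genes, and in cultured cells ER stress is known to slow ribosomal RNA synthesis through the kinase PERK. The data give messenger RNA levels, not ribosomal RNA, and in whole liver a change in the number of cells of a type and a change in RNA per cell cannot be told apart.

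A locus was called when its Cuffdiff test had the status OK and a deposited q under 0.05, and the words rose, fell, higher and lower stand for such calls. Log2 fold changes are followed by ± a standard error derived from the deposited test statistic, since the pooled values hold no spread between libraries. As a check of the genotype, the locus that holds Atf4, merged with Cacna1i, read 114 FPKM in knockout against 356 in wild-type livers with tunicamycin and 22.8 against 46.9 FPKM with DMSO, in the authors' deposited table. The fall passed with tunicamycin (q 0.000396) and not with DMSO (q 0.270), in the authors' deposited table. Hepatocyte markers identify the tissue: their summed FPKM over 8 genes was 8666, 9912, 13548 and 16122 in the 4 groups, in the order tunicamycin-treated knockout and wild type, then DMSO-treated knockout and wild type. Alb is listed at 0 in each group, under the status HIDATA of the authors' deposited table. The adrenal cortex markers summed to 1289 FPKM and the skeletal muscle markers to 324 in the knockout tunicamycin group, against 23.5 and 4.74 in wild type with tunicamycin.

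With tunicamycin most of the set was higher in both genotypes. By the authors' deposited table, 36 of 40 genes rose in the knockout and 33 of 40 in wild type, and 0 fell in either genotype. All 33 that rose in wild type also rose in the knockout. Among all tested loci 18.1% rose in each genotype and 14.5% in both, while 14.8% fell in the knockout and 19% in wild type. The median log2 change of the 40 genes was 1.30 in the knockout and 1.46 in wild type, or 2.46-fold and 2.76-fold, while the median of all tested loci was 0.01 in the knockout and -0.02 in wild type. At least a 2-fold rise was called for 32 genes in the knockout and 30 in wild type (11% and 11.2% of all tested loci). Their summed level was 1245 FPKM with tunicamycin against 480 with DMSO in knockout livers, and 1315 against 493 FPKM in wild-type livers. For 38 of the 40 genes both tunicamycin values lay above both DMSO values.

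**Figure D1:**
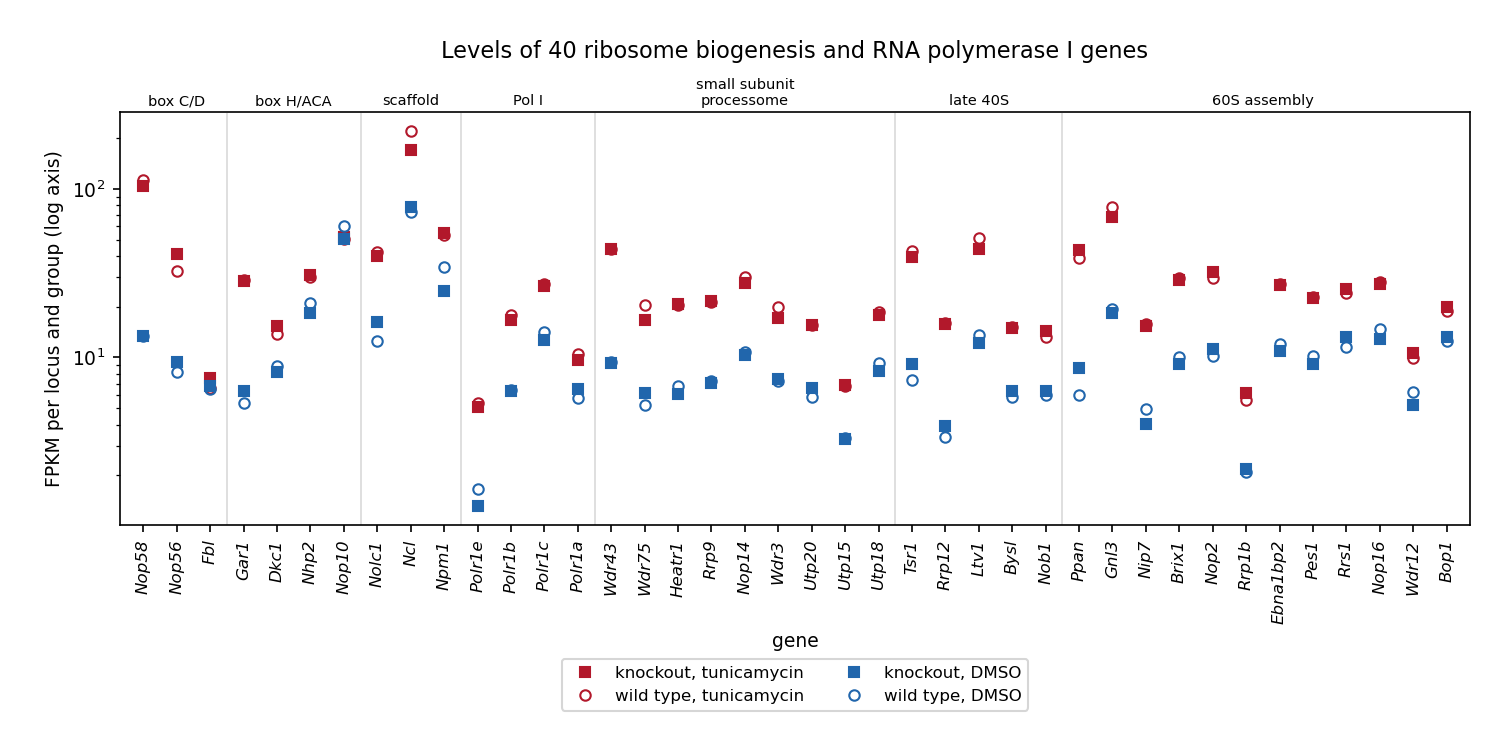
FPKM (log axis) of the 40 genes in the 4 groups, 1 pooled value of 3 libraries per group, ordered by role and then by the wild-type response; squares are knockout and open circles wild type, red is tunicamycin and blue DMSO. The red points lie above the blue ones for 38 genes, and red squares and circles lie close together.

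All 40 genes were expressed in every group, at 5.09 to 170 FPKM in knockout with tunicamycin, 5.39 to 219 in wild type with it, 1.31 to 78.4 in knockout with DMSO and 1.65 to 72.6 in wild type with DMSO. With tunicamycin 35 genes stood at 10 FPKM or more in each genotype, against 15 in knockout and 17 in wild type with DMSO. Nucleolin, Ncl, the abundant RNA-binding protein of the nucleolus, was the highest in each group, and the RNA polymerase I subunit gene Polr1e the lowest. The order below Ncl differed between treatments. With DMSO the pseudouridylation protein gene Nop10 and the histone chaperone gene Npm1 came next in both genotypes, and with tunicamycin Nop58 and Gnl3 did.

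Promoters were searched for 4 short motifs on both strands, in the window from 250 bases before to 50 bases after each gene start of RefSeq (build GRCm38.p6), and 35 of the 40 genes matched a promoter. CACGTG, the E-box that MYC with MAX can bind, stood in 7 of 35 (20%), against 8.09% of all 27025 genes with a promoter. These 7 were Wdr43, Utp18, Utp20, Tsr1, Ltv1, Nop2 and Pes1. All 7 rose in both genotypes, with medians of 1.51 in the knockout and 1.53 in wild type. Of the 28 genes without the motif 26 rose in the knockout and 23 in wild type, with medians of 1.35 and 1.48. Among all tested loci 18.1% rose in each genotype. Most of the set thus rose with or without the motif, and its part in the rise was not tested. TGATGNAAT, the composite site of ATF4 with C/EBP factors, was in 0 of 35, against 1.08% of all genes. The ER stress element, a CCAAT box spaced from a CCACG, was in 0 of 35, against 0.137% of all genes. TGACGTGG, a site of the stress factors XBP1 and ATF6, was in Bysl alone (2.86%, against 0.714%). TGACGTGG and CACGTG can share bases. A match is a stretch of letters and not a bound site, and no match says only that the letters are missing from this window. The sequences show 4 genes with the E-box at different distances from the start, and Nop58, the gene with the largest rise, without any of the motifs. Each runs 5′ to 3′ on the gene's strand over 150 bases, from 120 bases before the start to 30 bases from it, with the E-box in capitals. Nop2 is at chr6:125131763-125131912 (plus strand), Utp18 at chr11:93885737-93885886 (minus strand), Wdr43 at chr17:71616095-71616244 (plus strand), Tsr1 at chr11:74897960-74898109 (plus strand) and Nop58 at chr1:59684886-59685035 (plus strand). The first base of the E-box lies at -60 in Nop2, -20 in Utp18, 18 in Wdr43 and 25 in Tsr1, counted from the start as 1.
Nop2: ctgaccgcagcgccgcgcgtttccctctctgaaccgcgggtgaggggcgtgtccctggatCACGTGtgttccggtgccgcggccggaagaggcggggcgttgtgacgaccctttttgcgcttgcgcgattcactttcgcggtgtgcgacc
Utp18: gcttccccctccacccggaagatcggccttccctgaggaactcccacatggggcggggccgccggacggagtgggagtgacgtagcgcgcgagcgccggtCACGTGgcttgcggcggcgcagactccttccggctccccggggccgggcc
Wdr43: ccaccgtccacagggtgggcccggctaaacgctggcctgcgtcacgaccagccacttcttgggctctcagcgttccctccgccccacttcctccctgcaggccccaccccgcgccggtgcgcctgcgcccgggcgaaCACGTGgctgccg
Tsr1: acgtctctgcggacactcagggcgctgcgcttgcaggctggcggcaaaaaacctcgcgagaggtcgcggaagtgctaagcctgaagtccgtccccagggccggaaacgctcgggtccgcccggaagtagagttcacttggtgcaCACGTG
Nop58: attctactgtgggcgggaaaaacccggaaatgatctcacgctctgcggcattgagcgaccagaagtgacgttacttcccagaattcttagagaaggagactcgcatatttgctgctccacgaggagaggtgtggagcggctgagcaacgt

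The proteins of box C/D particles, which methylate ribosomal RNA, differed widely. Nop58, a core scaffold protein of these particles, had 104 FPKM with tunicamycin against 13.4 with DMSO in knockout livers and 113 against 13.5 FPKM in wild-type livers, in the authors' deposited table. This was the largest rise of the set in both genotypes, 7.75-fold in the knockout and 8.37-fold in wild type. On the log2 scale it was 2.95 ± 0.20 and 3.07 ± 0.20 (q 0.000396 each in the authors' deposited table). Its partner Nop56 had 41.3 against 9.43 FPKM in knockout and 32.6 against 8.17 in wild-type livers, in the authors' deposited table. It rose by 2.13 ± 0.57 and 1.99 ± 0.62, the widest errors among the 40 genes (q 0.0114 in the knockout and 0.0328 in wild type, in the authors' deposited table). Fibrillarin, Fbl, the methyltransferase of the same particle, had 7.56 against 6.76 FPKM in knockout and 6.55 against 6.45 in wild-type livers, and did not pass (q 0.773 and 0.975 in the authors' deposited table). The 95% interval of its log2 change ran from -0.39 to 0.71 in the knockout and from -0.54 to 0.58 in wild type, below the interval of Nop58, which began at 2.56 and 2.67. On the FPKM scale, which corrects for length, Nop58 stood 13.8 times above Fbl in knockout and 17.2 times in wild type with tunicamycin, against 1.99 and 2.09 times with DMSO.

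The box H/ACA proteins, which form pseudouridine, also differed among themselves in the test. Gar1 had 28.3 FPKM with tunicamycin against 6.30 with DMSO in knockout and 28.9 against 5.36 in wild-type livers, a rise of 2.17 ± 0.26 and 2.43 ± 0.27 (q 0.000396 each, in the authors' deposited table). Dyskerin, Dkc1, the pseudouridine synthase, had 15.45 against 8.20 FPKM in knockout and 13.8 against 8.93 in wild-type livers, in the authors' deposited table. It rose by 0.91 ± 0.31 in the knockout (q 0.0236), while its change of 0.63 ± 0.31 in wild type did not pass (q 0.142), by the authors' deposited table. Nhp2, a core protein of the same particle, had 30.7 against 18.4 FPKM in knockout and 30.1 against 21.2 in wild-type livers, in the authors' deposited table. It likewise rose in the knockout (0.74 ± 0.29, q 0.0482) and not in wild type (0.51 ± 0.27, q 0.183), in the authors' deposited table. The smallest protein of the particle, Nop10, had 51.5 against 50.6 FPKM in knockout and 50.5 against 60.2 in wild-type livers. Its log2 changes of 0.02 ± 0.21 and -0.25 ± 0.21 did not pass (q 0.961 and 0.439 in the authors' deposited table). Nop10 and Fbl were the 2 genes whose tunicamycin values did not all lie above their DMSO values.

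All 3 nucleolar scaffold and chaperone genes rose in both genotypes. Ncl had 170 FPKM with tunicamycin against 78.4 with DMSO in knockout and 219 against 72.6 in wild-type livers, a rise of 1.12 ± 0.23 and 1.60 ± 0.23 (q 0.000396 each in the authors' deposited table). Nolc1, which binds both classes of small nucleolar particles, had 39.98 against 16.3 FPKM in knockout and 42.4 against 12.6 in wild-type livers (1.30 ± 0.20 and 1.75 ± 0.20), in a locus that the authors' deposited table merges with Pprc1. Nucleophosmin, Npm1, had 54.9 against 24.9 FPKM in knockout and 53.1 against 34.5 in wild-type livers, in the authors' deposited table. It rose by 1.14 ± 0.20 (q 0.000396) and 0.62 ± 0.19 (q 0.00868), by the authors' deposited table. Npm1 is known to have processed pseudogenes, so its reads can be split among near-identical copies.

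RNA polymerase I subunits rose less evenly. The second-largest subunit gene Polr1b had 16.7 FPKM with tunicamycin against 6.34 with DMSO in knockout and 17.8 against 6.38 in wild-type livers (1.39 ± 0.20 and 1.48 ± 0.20; q 0.000396 each in the authors' deposited table). Polr1e had 5.09 against 1.31 FPKM in knockout and 5.39 against 1.65 in wild-type livers (1.96 ± 0.31 and 1.71 ± 0.27, q 0.000396 each, in the authors' deposited table). The catalytic subunit gene Polr1a rose least, by 0.56 ± 0.20 in the knockout (q 0.0282) and 0.85 ± 0.20 in wild type (q 0.000396), in the authors' deposited table. Polr1c, a subunit shared with RNA polymerase III, had 26.4 against 12.7 FPKM in knockout and 27.3 against 14.2 in wild-type livers. Its changes of 1.05 ± 0.50 and 0.94 ± 0.50 were of the same size as those that passed, with a wider error (q 0.125 and 0.183 in the authors' deposited table).

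The 9 genes of the small subunit processome all rose in both genotypes, with medians of 1.42 in the knockout and 1.48 in wild type. Wdr43, a WD-repeat protein of this complex, had 43.9 FPKM with tunicamycin against 9.33 with DMSO in knockout and 44.2 against 9.44 in wild-type livers, a rise of 2.24 ± 0.20 and 2.23 ± 0.20 (q 0.000396 each in the authors' deposited table). Wdr75 had 16.7 against 6.19 FPKM in knockout and 20.4 against 5.24 in wild-type livers (1.43 ± 0.21 and 1.96 ± 0.22), in the authors' deposited table. No other gene of the set had a larger gap between the responses of the genotypes, and this gap did not pass the test given further on. The other 7 were Heatr1, Rrp9, Nop14, Wdr3, Utp20, Utp15 and Utp18, with rises of 1.06 to 1.77 in the knockout and 1.01 to 1.60 in wild type, per the authors' deposited table.

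All 5 genes of later 40S maturation also rose in both genotypes. Tsr1, a GTPase-like factor on the pre-40S particle, had 39.2 FPKM with tunicamycin against 9.10 with DMSO in knockout and 42.7 against 7.38 in wild-type livers (2.11 ± 0.41 and 2.53 ± 0.40, q 0.000396 each in the authors' deposited table). Rrp12, which helps in export of the particles, had 15.7 against 3.94 FPKM in knockout and 16.0 against 3.39 in wild-type livers, a rise of 2.0 ± 0.22 and 2.24 ± 0.22 (q 0.000396 each in the authors' deposited table). Ltv1, an export adaptor of the pre-40S particle, reached 44.2 FPKM in knockout and 51.3 in wild-type livers with tunicamycin, against 12.1 and 13.6 with DMSO, in the authors' deposited table. The smallest rise here was that of Nob1, the nuclease that makes the final cut of 18S ribosomal RNA, by 1.17 ± 0.24 and 1.15 ± 0.24, and the remaining gene, Bysl, which acts on the pre-40S particle, rose by 1.24 ± 0.33 and 1.38 ± 0.32, per the authors' deposited table.

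Of the 12 genes of 60S assembly 11 rose in the knockout and 10 in wild type. Ppan, a pre-60S factor, had 43.6 FPKM with tunicamycin against 8.64 with DMSO in knockout and 38.8 against 5.96 in wild-type livers (2.33 ± 0.22 and 2.70 ± 0.23, q 0.000396 each in the authors' deposited table). Nucleostemin, Gnl3, a GTP-binding protein of the nucleolus, had 68.0 against 18.4 FPKM in knockout and 78.2 against 19.3 in wild-type livers (1.89 ± 0.38 and 2.01 ± 0.40), in the authors' deposited table. The 3 proteins of the PeBoW complex, which acts in the processing of the large subunit RNA, did not all pass. Pes1 rose in both genotypes (1.31 ± 0.20 in the knockout and 1.16 ± 0.20 in wild type), by the authors' deposited table. Wdr12 had 10.6 against 5.21 FPKM in knockout and 9.95 against 6.21 in wild-type livers, in the authors' deposited table. It rose in the knockout (1.02 ± 0.27, q 0.0023) and just missed in wild type (0.68 ± 0.27, q 0.0522), by the authors' deposited table. Bop1, the third of them, had 19.9 against 13.2 FPKM in knockout and 18.8 against 12.5 in wild-type livers, in the authors' deposited table. It did not pass (0.59 ± 0.33 and 0.58 ± 0.32, q 0.205 and 0.181 in the authors' deposited table). The other 7 genes, which act on pre-60S particles, were Nip7, Brix1, Nop2 (a methyltransferase of large subunit RNA), Rrp1b, Ebna1bp2, Rrs1 and Nop16. They rose by 0.95 to 1.94 in the knockout and 0.93 to 1.67 in wild type, per the authors' deposited table.

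**Figure D2:**
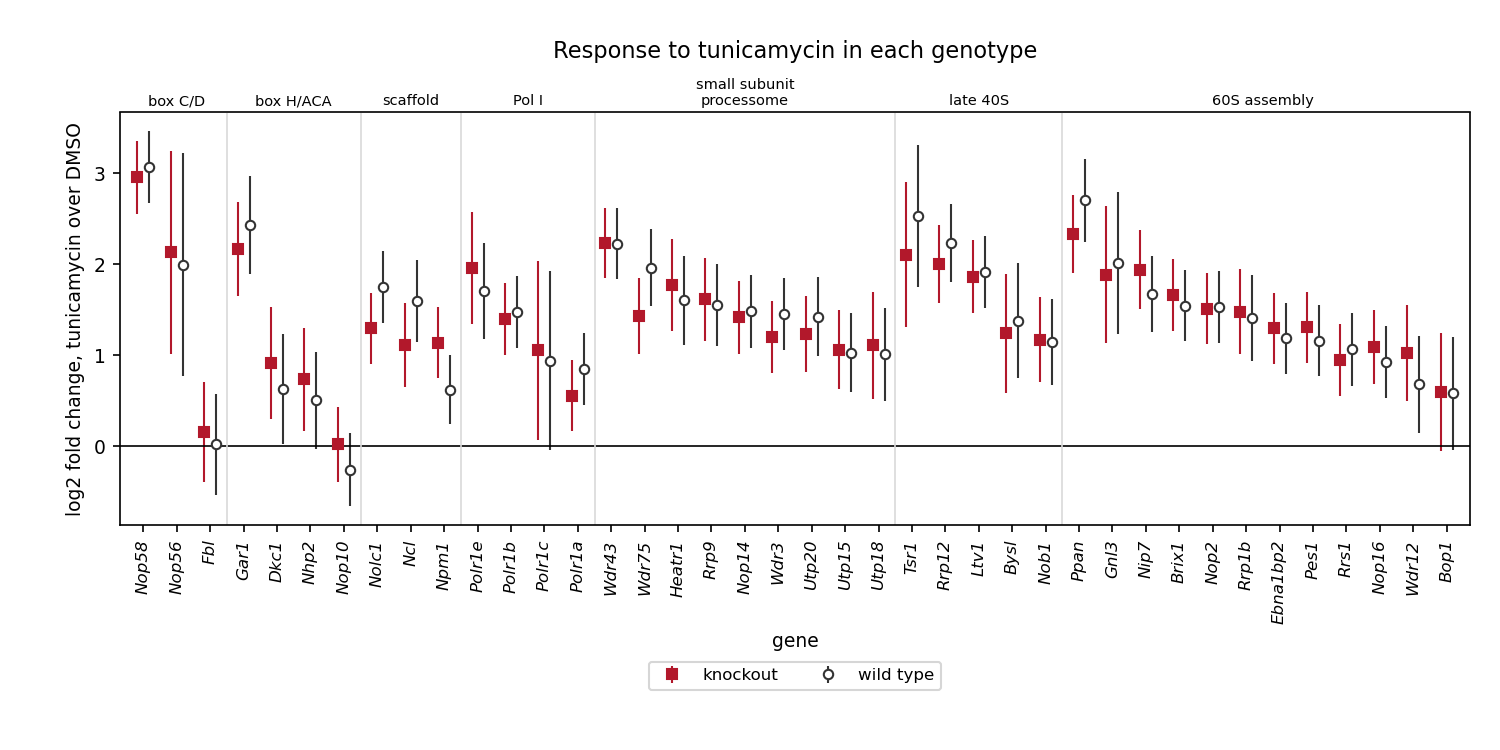
Log2 fold change of each of the 40 genes, tunicamycin over DMSO, in the knockout (red squares) and in wild type (open circles), from pooled values of 3 libraries per group; bars are 95% intervals from the derived standard errors. Nop58 is highest at 2.95 and 3.07, Fbl and Nop10 lie near 0, and the bars of the genotypes overlap at each gene.

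Some of these genes host small nucleolar RNAs in their introns. The mapped intervals of 6 genes, Nop56, Nop58, Ncl, Wdr43, Tsr1 and Gnl3, overlap named loci of small nucleolar RNAs, and all 6 rose in both genotypes with a median of 2.12 in each. The other 34 genes had medians of 1.27 in the knockout and 1.39 in wild type, with 30 and 27 called higher. Intervals of 15 genes overlapped another named locus, where reads can be shared. The median standard error of the wild-type response was 0.27 for these and 0.21 for the rest. In position the genes are scattered: Nop58 lies on chromosome 1 (59741828 to 59768442), Ppan on chromosome 9 (20692618 to 20696623), Gar1 on chromosome 3 (129527829 to 129534314), Wdr43 on chromosome 17 (71965554 to 72008371) and Fbl on chromosome 7 (28953867 to 28964288), in mm9 as the authors' deposited table gives them.

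Between knockout and wild-type livers none of the 40 genes was called, but few of all tested loci were, so few calls would fall in a list of this size. With tunicamycin, knockout against wild type gave 0 calls of 40 by Cuffdiff, against 5.92% of the tested loci of the authors' deposited table (3.73% higher and 2.19% lower). The lowest q was 0.289 in the authors' deposited table, and 0 of 40 had an unadjusted p under 0.05, against 10.4% of all tested loci. The log2 changes ran from -0.37 (Ncl) to 0.34 (Nop56), with a median of -0.02 that becomes positive when groups are scaled to the same summed FPKM. Of the 40 genes 37 (92.5%) lay within 0.25 of 0, against 69.2% of the 11889 tested loci at 1 FPKM or more in both groups. The 40 genes stood at 5.09 FPKM or more in these groups, so the compared loci include lower levels. With DMSO there were 0 calls of 40 by Cuffdiff, against 2.86% of all tested loci (1.39% higher and 1.47% lower). An unadjusted p under 0.05 was found for 2 genes of 40, against 7.13% of all tested loci. These were Npm1, at 24.9 FPKM in knockout and 34.5 in wild-type livers (-0.47 ± 0.20, q 0.0772), and Ppan, at 8.64 FPKM in knockout and 5.96 in wild-type livers (0.54 ± 0.25, q 0.117), in the authors' deposited table. A missed threshold does not show equal levels: the 95% intervals reached a log2 change of 1 in either direction for 1 gene with tunicamycin, Nop56, and for 5 genes with DMSO.

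**Figure D3:**
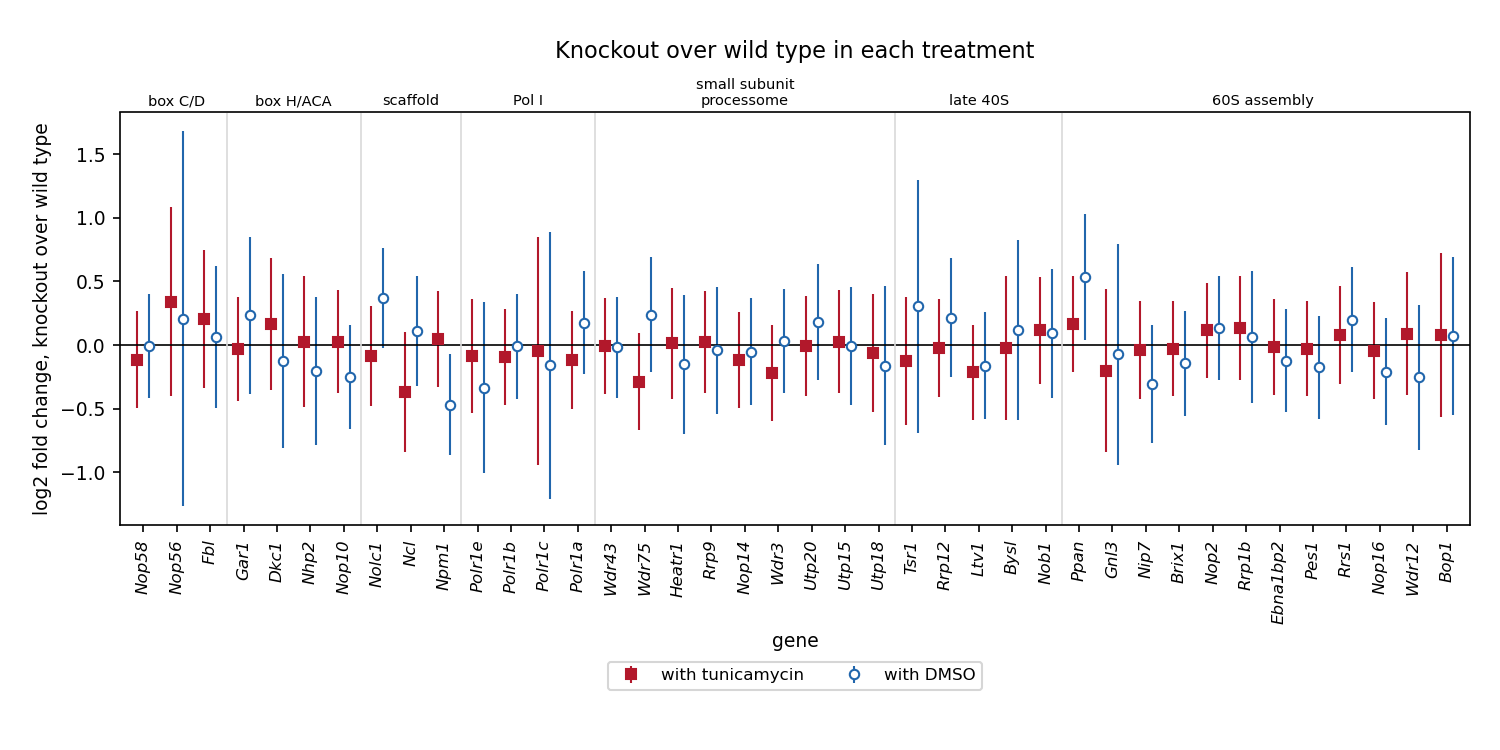
Log2 fold change of each of the 40 genes, knockout over wild type, with tunicamycin (red squares) and with DMSO (open blue circles), from pooled values of 3 libraries per group; bars are 95% intervals from the derived standard errors. With tunicamycin the points lie between -0.37 and 0.34, and 0 genes were called in either treatment.

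The response itself was then compared between genotypes, as the log2 change in the knockout minus that in wild type. It includes the knockout DMSO libraries, alone in lane 5, so a lane effect cannot be told apart from a difference. By a two-sided z test with Benjamini-Hochberg adjustment over the 14510 loci with a finite fold change in both genotypes, 0 of 40 genes differed, while 1.01% of all these loci were called. By the same test 0 of 40 had an unadjusted p under 0.05, against 762 of the 14510 loci. Differences ran from -0.53 ± 0.30 (Wdr75) to 0.52 ± 0.28 (Npm1), with a median of 0.02, and 22 of 40 were positive. For Nop58 the difference was -0.11, with a 95% interval from -0.67 to 0.45, and for Wdr43 it was 0.01, from -0.54 to 0.56. The interval lay within 1 log2 unit of 0 for 26 of 40 genes and was widest for Nop56, from -1.52 to 1.79. Dkc1, Nhp2 and Wdr12, which passed in the knockout and not in wild type, had differences of 0.29 ± 0.44, 0.23 ± 0.40 and 0.34 ± 0.38, each with an adjusted p of 1.00. The 2 responses share no library, and over the 40 genes they correlated with a Pearson r of 0.942 and a Spearman rho of 0.930, given as a description since genes are not replicates.

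**Figure D4:**
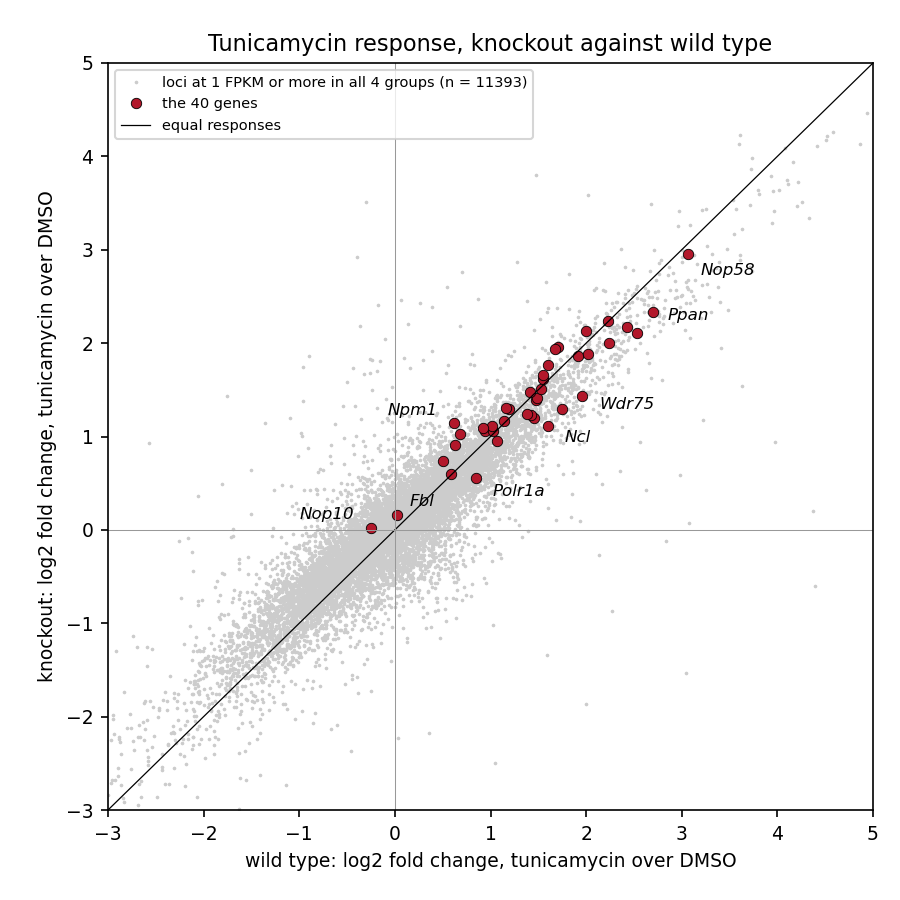
Log2 fold change with tunicamycin in the knockout (vertical) against that in wild type (horizontal) for 11393 loci at 1 FPKM or more in all 4 groups (grey, 67 of them outside the plotted range) and for the 40 genes (red); the line marks equal responses. The red points follow the line from Nop10 near 0 to Nop58 near 3.

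A further 96 genes of ribosome assembly were read from 2 lists, and 73 of them rose in the knockout and 72 in wild type. Of all tested loci 18.1% rose in each genotype. Of 50 other 60S assembly genes 43 rose in the knockout and 42 in wild type, with 0 falls and medians of 1.22 and 1.15. Of 46 other genes of the processome and the 40S subunit 30 rose in each genotype, with 0 falls and medians of 0.85 and 0.86. Among the largest rises were those of Nol8, at 29.9 FPKM with tunicamycin against 4.52 with DMSO in knockout and 36.4 against 5.01 in wild-type livers, in the authors' deposited table. Another was that of the processome gene Ngdn, at 106 against 15.9 FPKM in knockout and 109 against 16.0 in wild-type livers, in the authors' deposited table. With the 40 genes, 109 of 136 rose in the knockout and 105 in wild type. With tunicamycin 1 of the 96 assembly genes was lower in the knockout, against 2.19% of all tested loci. This was the RNA helicase gene Ddx52, at 38.8 FPKM in knockout against 66.0 in wild-type livers (-0.77 ± 0.19, q 0.000396 in the authors' deposited table). The difference of its responses did not pass the z test (-0.61 ± 0.29, adjusted p 0.790). With DMSO 1 of the 96 was lower in the knockout, against 1.47% of all tested loci. This was Gltscr2, which takes part in 60S assembly (40.9 FPKM in knockout against 57.1 in wild type, -0.48 ± 0.19, q 0.0443 in the authors' deposited table).

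The machinery that transcribes the ribosomal DNA rose in part. Of 18 tested subunits and factors beyond the 4 subunits above, 7 rose and 2 fell in the knockout and 5 rose and 0 fell in wild type. The 38.9% and 27.8% that rose compare with 18.1% of all tested loci in each genotype. The 11.1% that fell in the knockout compare with 14.8% of all tested loci. Twistnb, another polymerase I subunit, had 28.5 FPKM with tunicamycin against 6.03 with DMSO in knockout and 36.3 against 6.59 in wild-type livers (2.24 ± 0.22 and 2.46 ± 0.22, in the authors' deposited table). Rrn3, which makes the polymerase competent to start, rose by 0.56 ± 0.21 in the knockout (q 0.0297) and 0.66 ± 0.21 in wild type (q 0.00726), per the authors' deposited table. The ribosomal DNA-binding factor Ubtf rose by 0.69 ± 0.19 (q 0.00259) and 0.84 ± 0.19 (q 0.000396), per the authors' deposited table. The 2 falls in the knockout were Sirt7, a deacetylase that activates polymerase I, in a locus merged with Mafg (-0.83 ± 0.30, q 0.0242), and Baz2a, which silences ribosomal DNA (-0.63 ± 0.20, q 0.00726), per the authors' deposited table. Their changes in wild type were -0.66 ± 0.29 and -0.33 ± 0.20 and did not pass (q 0.0649 and 0.223 in the authors' deposited table). With tunicamycin 1 of the 18 was higher in the knockout than in wild type (5.56%, against 3.73% of all tested loci). This was Ptrf, a transcript release factor also known as a coat protein of caveolae (7.92 FPKM in knockout against 3.03 in wild type, 1.39 ± 0.26, q 0.000396 in the authors' deposited table). In the same group the fat markers summed to 152 FPKM in knockout against 28.6 in wild type, and the part of fat tissue in the value of Ptrf was not tested. RNA polymerase III, which makes 5S ribosomal RNA and transfer RNA, had 6 of 22 higher and 1 lower in the knockout and 8 higher and 1 lower in wild type, or 27.3% and 36.4% higher against the same 18.1%. Its largest rise was that of Polr3d (2.17 ± 0.24 and 2.24 ± 0.24 in the authors' deposited table).

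Factors that assemble small nucleolar particles rose at 6 of 12 (50%) in the knockout and 5 of 12 (41.7%) in wild type, with the ATPase gene Ruvbl2 at 1.23 ± 0.23 and 1.09 ± 0.22 in the authors' deposited table. The RNA exosome and related nucleases, which trim precursor RNA, had 8 of 15 (53.3%) higher in the knockout and 6 (40%) higher and 1 lower in wild type, with the catalytic subunit gene Dis3 at 1.51 ± 0.25 and 1.71 ± 0.25 in the authors' deposited table. Nucleotide synthesis had 8 of 18 higher and 2 lower in the knockout and 4 higher and 5 lower in wild type. In wild type these shares, 22.2% and 27.8%, were near the 18.1% and 19% of all tested loci. Impdh1 of guanine nucleotide synthesis (2.21 ± 0.29 and 2.19 ± 0.31) and Ctps, CTP synthase (2.18 ± 0.25 and 2.27 ± 0.24), rose most among its called genes, by the authors' deposited table. Prps2, which makes the sugar precursor, had the largest fall (-1.01 ± 0.22 and -1.40 ± 0.23).

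Few ribosomal protein genes rose. The cytosolic loci were taken by symbol, and paralogs such as Rpl22l1 are among them. Of the cytosolic ribosomal protein loci 9 of 84 tested rose in the knockout and 4 of 83 rose and 2 fell in wild type, with medians of 0.23 in the knockout and 0.01 in wild type. Mitochondrial ribosomal protein genes had 8 of 76 higher and 5 lower in the knockout and 5 higher and 17 lower in wild type, with medians of -0.04 and -0.33, of which the first turns positive when groups are scaled to the same summed FPKM. The shares that rose were 10.7% and 4.82% for the cytosolic and 10.5% and 6.58% for the mitochondrial genes, against 90% and 82.5% of the 40 genes and 18.1% of all tested loci. The shares of mitochondrial genes that fell were 6.58% in the knockout and 22.4% in wild type, against 14.8% and 19% of all tested loci. Knockout over wild type with DMSO, the medians were -0.22 for the cytosolic and -0.26 for the mitochondrial genes, where 0 of 76 were positive. With tunicamycin these medians were 0.004 and 0.003. The DMSO comparison sets lane 5 against lane 4, and scaling to the same summed FPKM adds 0.25 to it. Cytosolic ribosomal protein genes have many near-identical pseudogene copies, so their reads may be divided and single values are uncertain. With DMSO the loci of Rpl22, Rpl22l1, Rpl24 and Rps12 were lower in the knockout than in wild type, by the authors' deposited table. These were 4 of 83 tested, or 4.82%, against 1.47% of all tested loci. Rps12 was the 1 of 83 cytosolic loci whose responses differed between genotypes, against 1.01% of all loci in that test. The summed level of their 86 loci was 7323 FPKM with tunicamycin against 6565 with DMSO in knockout livers, and 7189 against 7621 FPKM in wild-type livers.

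**Figure D5:**
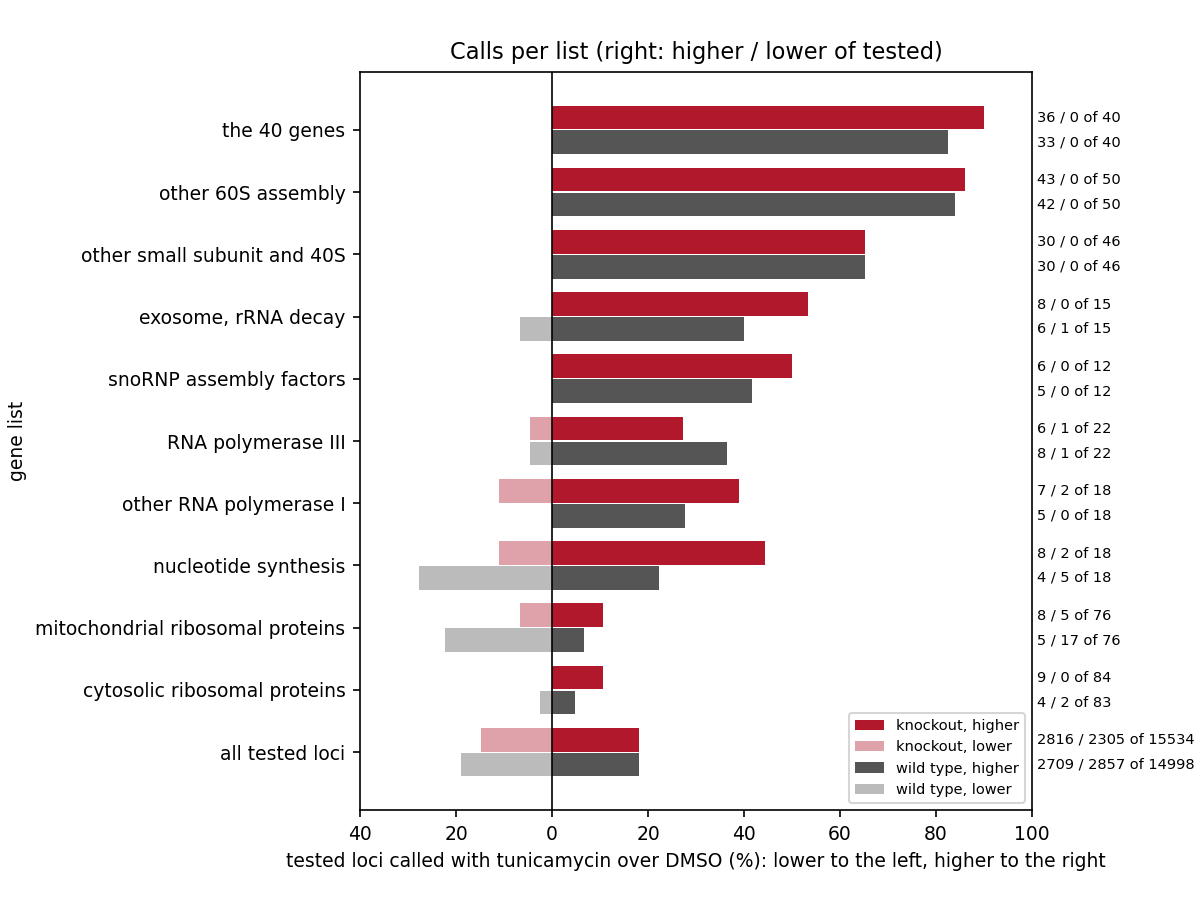
Share of tested loci in each gene list that were called higher (to the right) or lower (to the left) with tunicamycin over DMSO, for the knockout (red) and wild type (grey), with the counts of higher and lower loci at the right edge. The 40 genes and the other 60S assembly genes have over 80% of loci higher and 0 lower, against 18.1% of all tested loci higher.

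Genes of the MYC network moved in both directions. Myc itself had 14.4 FPKM with tunicamycin against 7.58 with DMSO in knockout and 15.6 against 4.61 in wild-type livers, a rise of 0.93 ± 0.26 (q 0.00627) and 1.76 ± 0.26 (q 0.000396) in the authors' deposited table. The difference of both responses was -0.83 ± 0.37 and did not pass (adjusted p 0.641). Its partner Max rose too, by 0.89 ± 0.21 and 1.05 ± 0.20, per the authors' deposited table. Mycn, at levels under 1 FPKM, fell (-2.24 ± 0.51 and -2.71 ± 0.61), as did Mxi1, another partner of Max (-0.70 ± 0.22 and -0.85 ± 0.21), per the authors' deposited table. Mxd1 and Mnt, which compete with MYC for Max, rose in both genotypes and were lower in the knockout than in wild type with tunicamycin. Mxd1 had 9.41 FPKM in knockout against 20.4 in wild-type livers (-1.12 ± 0.20, q 0.000396), in the authors' deposited table. Mnt had 8.35 FPKM in knockout against 12.7 in wild-type livers (-0.60 ± 0.20, q 0.00938), in the authors' deposited table. Mycl was also lower there (2.89 FPKM in knockout against 5.69 in wild type, q 0.00171 in the authors' deposited table). These 3 were of 9 tested genes of the network, against 2.19% of all tested loci lower. The difference test between the responses called 0 of 10 genes of the network.

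Markers of other cell types were read beside the 40 genes. Of all tested loci 18.1% rose with tunicamycin in each genotype, while 14.8% fell in the knockout and 19% in wild type. With DMSO 1.39% were higher in knockout than in wild type, and the difference test called 1.01%. Both of these use the knockout DMSO libraries, alone in lane 5, so a lane effect cannot be told apart. Endothelial markers summed to 83.6 FPKM with tunicamycin against 138 with DMSO in knockout livers (0 of 8 higher and 4 lower), and to 114 against 90.3 in wild-type livers (3 higher and 0 lower). With DMSO 7 of these 8 markers were higher in knockout than in wild type, in the comparison that called 0 of the 40 genes, and 6 of 8 had a smaller response to tunicamycin in the knockout by the difference test. Markers of stellate cells and fibroblasts summed to 46.7 against 52.5 FPKM in knockout and 43.4 against 37.7 in wild-type livers, and with DMSO 4 of these 8 were higher in the knockout (median log2 change 0.48). Macrophage markers, summing to 196 against 248 FPKM in knockout and 208 against 231 in wild-type livers, had 1 of 8 higher and 1 lower in the knockout and 0 called by Cuffdiff in wild type, where 0 had an unadjusted p under 0.05. Markers of cycling cells, in which ribosome production is high, stayed low in sum, at 6.91 against 4.64 FPKM in knockout and 5.51 against 5.26 in wild-type livers over 8 genes, with 1 of 6 tested higher in the knockout and 1 higher and 1 lower in wild type. With tunicamycin the muscle and adrenal markers summed to 324 and 1289 FPKM in knockout livers, where the median log2 change of the 40 genes was 1.30, and to 4.74 and 23.5 FPKM in wild-type livers, where it was 1.46. The part of these cell types in the levels of the 40 genes was not tested.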

How the data were processed

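Poly(A) RNA from mouse liver was sequenced in 12 libraries. Per the submitters' processing notes, the authors used bcl2fastq, TopHat2 2.0.4 on build mm9, Cufflinks and Cuffdiff; annotation, filters and how libraries were normalized to each other were not given in the sources used here. Per the file headers, the values are 1 FPKM per locus and group, with 3 libraries pooled, and for each of 6 comparisons the deposited log2 fold change, test statistic (a score), p-value and q-value; 4 comparisons were used. The deposited q-values are adjusted over all 90828 tests. Labels name separate libraries but not separate animals, so p-values may measure technical spread.

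A symbol was read at the locus that carries no other name (the most abundant, where there were several), or else at a merged locus. Every gene was named by its role; full values were given for the 5 largest rises per genotype, the most and least abundant gene, genes that missed the test and, chosen after their values were seen, a few others. The genes and lists were chosen with earlier results of these data known. 1 of the listed pathway genes, Noc2l, was not analysed here.

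Standard errors are the log2 fold change over the deposited statistic times 1 scale per comparison (1.73 in both tunicamycin comparisons), set so that a normal p matches the deposited p-values; single loci vary around that scale (from 1.27 to 1.80 between the 5th and 95th percentiles in the knockout), so the errors are approximate. The difference test was tested on simulated data. Loci keep the table's own coordinates. Tools were matplotlib 3.10.9, scipy 1.17.1, pandas 2.3.3 and numpy 2.4.6 under Python 3.11.15. An unnamed last column was not used.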

Additional observations from a re-analysis of the deposited data

How the results depend on the processing

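The number of the 40 genes called was the same in direction and close in size under each alternative run: 32 to 36 in the knockout and 30 to 34 in wild type for tunicamycin over DMSO, and 0 in both genotype comparisons and in the difference of responses. The alternatives were q within each comparison alone, a q threshold of 0.01, at least 2-fold, at least 1 FPKM in both groups, only loci of 1 name, and centring or scaling of all loci; for the difference they were unscaled statistics, at least 1 FPKM in all 4 groups, a threshold of 0.01, centring and, chosen after seeing the data, errors from the deposited p-values. In the Cuffdiff comparisons only q within each comparison could add calls. The other settings kept the deposited q and could only drop calls, so under them the 0 in the genotype comparisons was fixed in advance. Centring, scaling and the 1 FPKM limit could not change the tunicamycin counts either, since all 40 genes stood at 1 FPKM or more in each group. For the difference, the threshold of 0.01 and the unscaled statistics, which widen every error, could likewise only drop calls. Under these 2 settings its 0 was fixed in advance. Scaling each group to the same summed FPKM adds 0.28 to every wild-type response, 0.17 to every knockout response, 0.25 to knockout over wild type with DMSO and 0.14 with tunicamycin. The median of the 40 genes then became 1.75 in wild type with tunicamycin over DMSO and 0.25 for knockout over wild type with DMSO. No call changed direction, which was fixed in advance for the tunicamycin rises, since scaling adds to each of them. Over all loci the difference test called 146, but 19 with unscaled statistics, 84 at 1 FPKM or more in all 4 groups and 48 with errors from the p-values, so its total depends on the error used. Wdr12 passed in wild type with q within that comparison (0.0354). At a q threshold of 0.01, 4 genes in the knockout and 1 in wild type no longer passed. Leaving out libraries was not run, since the values are pooled. No paired analysis was possible because the labels number no replicates and each group has 1 pooled column.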
